A study of Homo sapiens with 4 samples.

Results

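The genes described here encode the motors of the microtubule and the tubulins it is built from: the kinesins and their light chains, the cytoplasmic dyneins and their light chains, the subunits of dynactin, and the alpha-, beta- and gamma-tubulins with the proteins of the gamma-tubulin complex. Of the 14149 peaks found by HuR RNA immunoprecipitation and sequencing, 69 were placed in such a gene, chosen by the symbol of the RefSeq transcript that each peak was annotated to. They belonged to 18 genes, 17 of them protein-coding and 1 an antisense RNA. RefSeq holds 95 protein-coding genes of these families, so 78 had no peak.

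RNA was isolated from lysate of MDA-MB-231, a human triple-negative breast cancer cell line, with a mouse antibody against HuR (HuR RIP, 2 biological replicates) or with mouse IgG as the control (IgG RIP, 2 biological replicates). The cells of both groups were otherwise alike in the labels, and libraries were made with a TruSeq RNA kit without poly(A) selection. The deposited result is a single list of peaks that does not separate the 4 samples. HuR RIP could therefore not be tested against IgG RIP at any peak here, no spread between replicates can be given, and a gene without a peak is one that is absent from the list, not one shown to be unbound.

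HuR, encoded by ELAVL1, binds AU-rich and U-rich stretches of RNA and affects the stability and translation of many mRNAs. Kinesins use ATP to move along microtubules, most of them towards the plus end, or to take microtubules apart, whereas dynein, with its cofactor dynactin, moves towards the minus end. Alpha- and beta-tubulin pair into the subunit of the microtubule wall, and gamma-tubulin in its ring complex starts new microtubules. In dividing cells the same machinery builds the spindle, and inhibitors of the mitotic kinesin KIF11 have been tried against cancer.

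A few sequences from these peaks, of high and of low score, show the settings in which they lay. The first set gives 30 bases of the 3′-UTR under a peak, from hg38 and in the sense of the gene, chosen in each gene as the window with the most bases in ATTTA, the core of the AU-rich element, or, where no peak of the gene held ATTTA, in runs of 5 or more T. Capitals mark ATTTA in KIF5B, KIF3A and DYNC1LI2 and the T runs in KIF11 and DYNLL2.
KIF5B, chr10:32009505-32009534, − strand: tatcttgatggttcttttctATTTAtaatt
KIF3A, chr5:132693412-132693441, − strand: ccctttaATTTAaaaagtgatATTTATTTA
DYNC1LI2, chr16:66723549-66723578, − strand: tggcttgtccgagtgtgaaatgcacATTTA
KIF11, chr10:92654537-92654566, + strand: cctcggctcactttctcccTTTTTaTTTTT
DYNLL2, chr17:58089491-58089520, + strand: ttaTTTTTcaagactttaaaaataTTTTTT
The window of KIF3A held 3 copies of ATTTA in 30 bases. Each window was picked for its motif, so motif density cannot be set against score here.

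The second set shows the other setting, the edge of a coding exon inside a peak whose centre fell in the neighbouring intron. Each run has 50 bases of exon in capitals and 50 of intron in lower case, again 5′ to 3′ in the sense of the gene.
KIF5B, end of exon 24, chr10:32017093-32017192, − strand: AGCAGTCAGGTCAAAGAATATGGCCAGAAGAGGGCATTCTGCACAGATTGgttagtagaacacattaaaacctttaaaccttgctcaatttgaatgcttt
KIF11, end of exon 14, chr10:92633746-92633845, + strand: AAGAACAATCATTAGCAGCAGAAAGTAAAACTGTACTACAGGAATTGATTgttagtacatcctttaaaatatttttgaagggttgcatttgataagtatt
KIF3A, end of exon 2, chr5:132734155-132734254, − strand: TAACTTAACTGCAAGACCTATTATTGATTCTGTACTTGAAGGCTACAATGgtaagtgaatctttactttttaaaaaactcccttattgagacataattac
DYNC2H1, start of exon 38, chr11:103177506-103177605, + strand: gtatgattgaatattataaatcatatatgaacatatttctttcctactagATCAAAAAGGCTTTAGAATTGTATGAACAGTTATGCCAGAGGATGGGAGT
The intron began with GT in KIF5B, KIF11 and KIF3A and ended with AG in DYNC2H1, the usual ends of an intron.

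Peaks were found in 17 of the 95 protein-coding genes, or 17.9% (Wilson 95% interval 11.5 to 26.8%), against 15.4% of all 20056 protein-coding genes, which lies inside that interval. When a peak had to lie over an exon of its own gene, it was 13 of 95, or 13.7% (interval 8.17 to 22.0%), against 14.5%. Kinesins held most of them: 10 of 39 kinesin genes had a peak, with 38 peaks in all. Among the kinesins of mitosis 6 of 14 were listed, among those that carry cargo 3 of 13, and among other kinesins 1 of 12. Of the kinesin light chains 1 of 4 was listed, of the dynein heavy and intermediate chains 1 of 6, and of the dynein light intermediate and light chains 2 of 13. None of the 6 dynactin subunits, DCTN1 to DCTN6, and none of the 10 alpha-tubulins had a peak. Of the beta-tubulins 1 of 10 was listed and of gamma-tubulin and its complex 2 of 7.

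**Figure D1:**
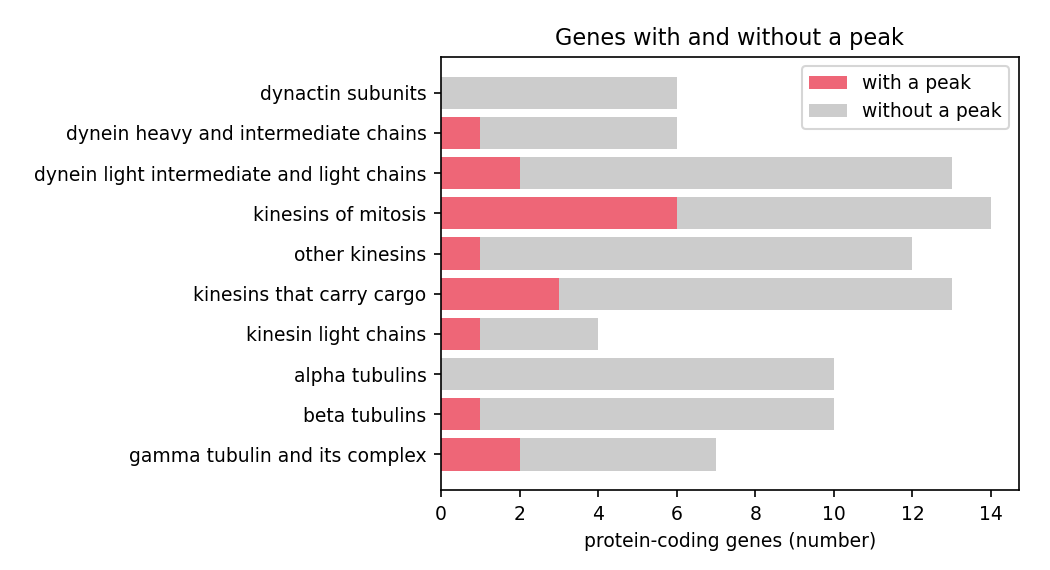
Number of protein-coding genes in each role (horizontal axis), split into those with a peak (red) and those without (grey). Mitotic kinesins have the most listed genes, 6 of 14, and dynactin subunits and alpha-tubulins have none. Over all protein-coding genes 15.4% have a peak, a share that rises with mRNA length. The median mRNA is 4237.5 bases in the mitotic kinesins, 3044.5 in the dynactin subunits and 1649.5 in the alpha-tubulins.

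Longer mRNAs were listed more often over the whole list, and in these families too the genes from 4000 bases up held the larger shares. Of the genes with a canonical mRNA under 2000 bases, 2 of 29 (6.90%) had a peak, against 3.30% of all protein-coding genes of that length. These 2 were TUBB6 and TUBG1, whose peaks lay over no exon of their own, and with that condition the counts were 0 of 29 against 2.54%. From 2000 to 4000 bases it was 3 of 28 (10.7%) against 13.6%, from 4000 to 6000 bases 5 of 14 (35.7%) against 26.3%, and from 6000 bases up 7 of 24 (29.2%) against 34.0%. The median mRNA of the listed family genes was 5016 bases and that of the unlisted ones 2842.5 bases, and the median 3′-UTR was 1369 against 573.5 bases. Over all protein-coding genes the same medians were 4760 and 2619 bases for the mRNA and 2502.5 and 862 bases for the 3′-UTR. ATTTA in the 3′-UTR had a median density of 2.57 per kb in listed and 1.14 per kb in unlisted family genes, beside 2.68 and 1.23 per kb over all genes. The part of length and of motif density in which genes were listed was not tested.

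**Figure D2:**
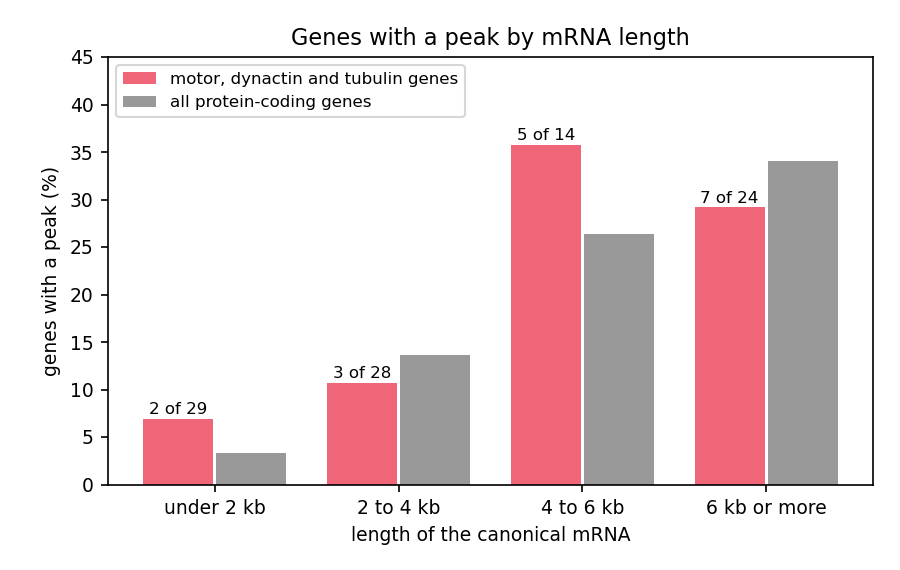
Percentage of protein-coding genes with a peak (vertical axis) in 4 classes of canonical mRNA length (horizontal axis), for the motor, dynactin and tubulin genes (red, with counts) and for all protein-coding genes (grey). In both, the classes from 4 kb up hold the larger shares.

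The score of a peak is HOMER's own value, whose scale the authors did not state. Scores are compared here only between peaks of this list, and a ratio of scores is a ratio of that value and not of binding or of enrichment over IgG. The 69 peaks had a median score of 20.8 with quartiles of 13.7 and 54.8, and the whole list had a median of 34.0 with quartiles of 17.6 and 83.4. Scores at or above the list's median were found for 19 of the 69 peaks (27.5%, interval 18.4 to 39.0%), in 7 of the 18 genes. The best peak per gene had a median of 25.2 in these genes and 34.0 over all 3313 genes with a peak. Together the 69 peaks held 0.278% of the summed score of the list. Low scores fell on multiples of 0.245, and if 1 such step is 1 tag, counting error alone gives the exact Poisson 95% intervals set beside some scores.

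**Figure D3:**
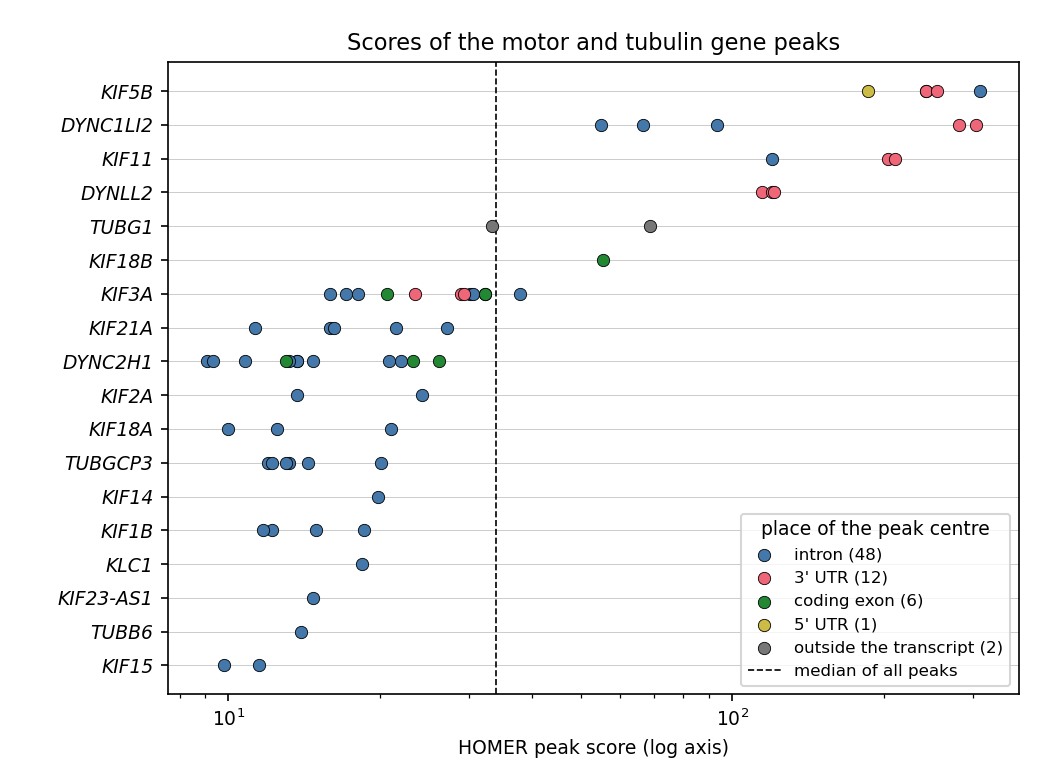
HOMER peak score (horizontal log axis) of each of the 69 peaks, 1 row per gene ordered by its best score, coloured by where the peak centre lies in the canonical transcript. Only KIF5B, DYNC1LI2, KIF11, DYNLL2, TUBG1, KIF18B and KIF3A have a peak above the dashed line, the median of 34.0 over all peaks.

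Among the kinesins that carry cargo, KIF5B had the highest-scoring peak of all these genes. It is the ubiquitous heavy chain of kinesin-1, which carries vesicles, mitochondria and mRNA granules. Its 5 peaks scored 310.1, 254.5, 242.8, 242.8 and 186.2, a narrow range of 1.67-fold, and the gene ranked 228 of 3313 by its best peak. The best, with an interval of 293 to 328, was centred in the intron 123 bp after exon 24 of 26, the exon edge printed above. The peak of 254.5 (interval 239 to 270) and 1 of the 2 at 242.8 overlapped on opposite strands in the 3′-UTR. The peak of 186.2 lay over the 5′-UTR in exon 1. The other heavy chains of kinesin-1, KIF5A and KIF5C, had no peak.

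KIF3A, the motor subunit of kinesin-2 that works in the building of cilia, had 12 peaks, a number that 240 genes of the list reached and of which the largest was 40. Their scores ran from 15.9 to 37.9 with a median of 29.15, and 1 of them, centred 37 bp after exon 2, passed the list's median. Of the 12, 7 were intronic at their centre, 2 were on coding exons 3 and 4, and 3 were on the 3′-UTR. The 3 in the 3′-UTR scored 29.4, 28.9 and 23.5, inside the range of the intronic ones. The 12 peaks spanned the gene from 0.514% to 99.0% of its length. KIF3B and KIF3C, which pair with KIF3A, had none, and KIFAP3, which completes the kinesin-2 complex, had 2 peaks with a best score of 17.1.

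KIF1B, a kinesin-3 that carries mitochondria and synaptic vesicle precursors, had 4 peaks, at 18.6, 14.9, 12.2 and 11.7. All were on the strand of the gene, centred in introns 12 to 132 bp after an exon. KIF21A, a kinesin-4 that restrains microtubule growth and stands among the other kinesins, had 5 intronic peaks at 27.2, 21.5, 16.2, 15.9 and 11.3. None of these 9 peaks reached the list's median. KLC1, a light chain of kinesin-1 that holds the cargo, had a single peak at 18.4 (interval 14.4 to 23.0), 2025 bp from the nearest exon of its canonical transcript and annotated as an Alu repeat. It also lay over exons of GENCODE genes that have no symbol.

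KIF11, also called Eg5, pushes the poles of the spindle apart and had the best score of the mitotic kinesins. Its 3 peaks scored 210.7 (interval 197 to 225), 204.1 (190 to 218) and 119.7 (109 to 131). The higher pair lay over each other in the 3′-UTR on opposite strands, and the third was centred 89 bp after exon 14. KIF18B, a kinesin-8 that acts at the plus ends of astral microtubules, had 1 peak at 55.3 (interval 48.3 to 63.0), in coding exon 13. That peak had 62.2% G and C.

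The other mitotic kinesins scored below the list's median at every peak. KIF2A, which depolymerises microtubules, had peaks at 24.2 and 13.7. KIF18A, a kinesin-8 that damps chromosome movement at the metaphase plate, had peaks at 21.0, 12.5 and 10.0. Those at 21.0 and 12.5 lay over no exon of KIF18A, with centres 184 and 218 bp from exon 5. KIF14, which acts in cytokinesis, had 1 at 19.8, and KIF15, which helps keep the spindle bipolar beside KIF11, had 11.5 and 9.79. The best peak of KIF5B scored 27.0 times that of KIF15. KIF23, KIF20A, KIF4A and KIF2C, other kinesins of division, had no peak in their own transcripts, although KIF23-AS1, an RNA antisense to KIF23, had 1 at 14.7 that also lay over an exon of PAQR5.

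For dynein, the peaks were on 3 genes. DYNC1LI2, a light intermediate chain that links cytoplasmic dynein 1 to its cargo adaptors, had 5 peaks at 305.4 (interval 289 to 323), 281.4 (265 to 298), 93.2, 66.6 and 54.8. The 2 highest overlapped on opposite strands in its 3′-UTR, and the other 3 were centred in introns within 258 bp of exons 6, 7 and 8. The deposited annotation gave the 3′-UTR pair as an exon of a non-coding transcript of the same gene, while its gene name column gave CMTM4, the gene with the nearest start. DYNLL2, a light chain that also serves as a dimerising hub for many other proteins, had 3 peaks at 121.1, 119.9 and 114.8 in its 3′-UTR, whose Poisson intervals overlapped. DYNLL1, its close relative, and DYNC1LI1 had none.

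DYNC2H1, the heavy chain of dynein 2, which returns cargo from the tip of the cilium, had 12 peaks at low scores. They ran from 9.05 to 26.2 with a median of 13.7, so that none reached the list's median. The best was in coding exon 26, and 9 were centred in introns. The peaks touched or neighboured 11 different exons of 89 and lay between 0.0983% and 57.2% of the length of the gene, so the 3′-most part, the 3′-UTR included, had none. DYNC1H1, the heavy chain of dynein 1 and the longest mRNA of the families at 19940 bases, was not listed.

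**Figure D4:**
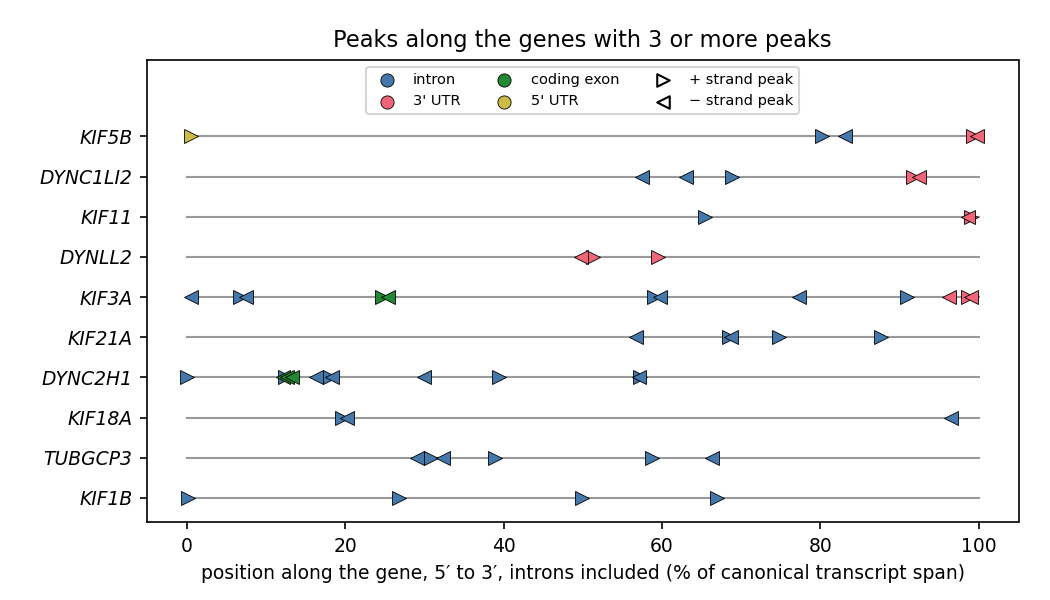
Position of each peak along the canonical transcript span, introns included (horizontal axis, % from the 5′ end), in the 10 genes with 3 or more peaks; colour gives the place of the peak centre and the arrow the strand of the peak. Peaks of KIF3A reach from end to end, those of DYNC2H1 stop at 57.2%, and the 3′-UTR peaks of KIF5B, DYNC1LI2, KIF11, KIF3A and DYNLL2 come partly as pairs on opposite strands.

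None of the 22 alpha-, beta- and gamma-tubulin genes had a peak over an exon of its own, although 2 were listed. Over all protein-coding genes the share with such a peak was 14.5%, and for mRNAs under 2000 bases it was 2.54%. The median mRNA was 1649.5 bases in the alpha-tubulins and 1792.5 bases in the beta-tubulins, so few such peaks would be looked for at that length. TUBB6, a beta-tubulin of many tissues, had 1 peak at 13.9 (interval 10.6 to 18.1), in its last intron and 5562 bp from the nearest exon. TUBG1, the main gamma-tubulin, had peaks at 68.8 (61.0 to 77.3) and 33.3 (27.9 to 39.4), annotated to its promoter. Both lay before exon 1 of its canonical transcript, by 608 and 337 bp at their centres, and both lay over an exon of the neighbouring gene RETREG3, so the gene they belong to is uncertain. TUBGCP3, a core protein of the ring complex, did have its exons under its 6 peaks, which scored from 12.0 to 20.1 and were all centred in introns within 165 bp of an exon.

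The exons of most tubulins shared sequence with other places of hg38, which the count does not divide into other tubulins and the rest. Of the 31-base words in the exons of the 19 unlisted alpha- and beta-tubulins, a median of 41.3% (range 0.179 to 87.4%) also stood elsewhere in hg38, and 16 of the 19 had 10% or more. In the kinesin, dynein and dynactin genes the median was 0% for the 54 unlisted and 1.33% for the 14 listed ones, and over all families it was 0.711% for the 78 unlisted and 4.11% for the 17 listed genes. TUBA1B, an alpha-tubulin used in most cells, had 72.3%, TUBB 41.3% and TUBB6 7.11%. How the authors treated reads with several places is not given in the sources used here. The part of this and of mRNA length in which tubulins were listed was not tested. The unlisted alpha- and beta-tubulins below 10% were TUBAL3 at 0.179%, TUBB1 at 0.562% and TUBA8 at 2.05%.

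**Figure D5:**
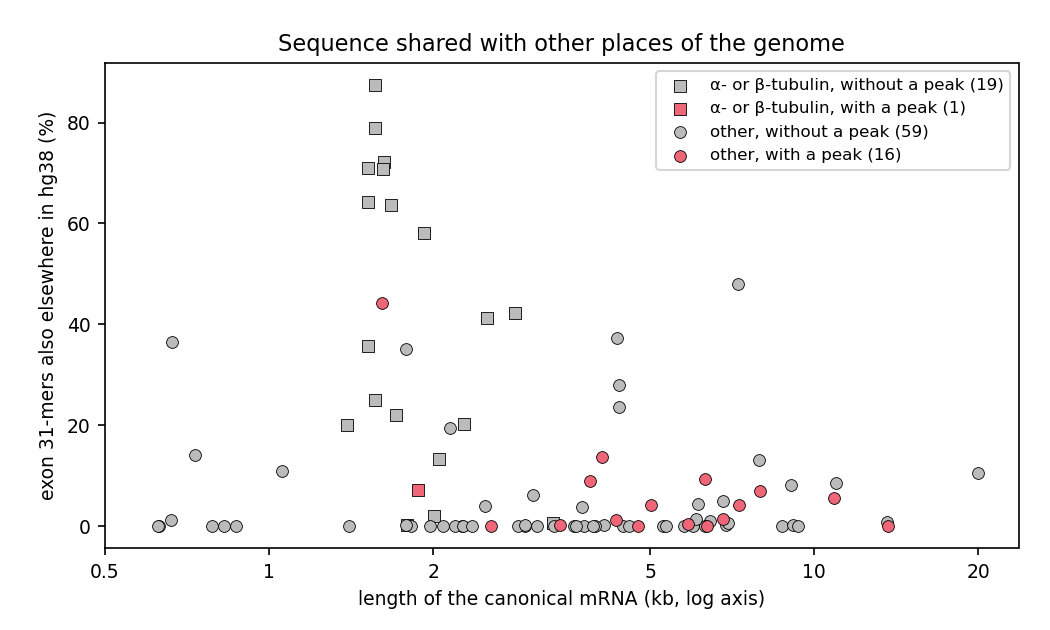
Share of the 31-base words in a gene's exons that also stand elsewhere in hg38 (vertical axis, %) against the length of its canonical mRNA (horizontal log axis, kb), for the 95 protein-coding genes; squares are alpha- and beta-tubulins and red marks genes with a peak. Most tubulins sit at or above 10%, and TUBB6, the listed one, sits at 7.11%.

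Within the peaks themselves, shared sequence was no more common than elsewhere in the list. Of the 69 peaks, 9 (13.0%, interval 7.02 to 23.0%) had 10% or more of their 31-base words at other places, against 14.8% of all peaks, and in 57 (82.6%) every word was unique, against 73.6%. The peak of KIF14 was the most repeated, at 57.1% and inside an AluSg element, followed by those of KIF15 at 41.0% and 18.3%, KLC1 at 30.0%, KIF3A at 28.4% and 20.8%, and TUBB6 at 23.0%. KIF14, KLC1 and TUBB6 had no other peak and no peak over an exon of their own. In all, 61 of the 69 peaks (88.4%, interval 78.8 to 94.0%) overlapped an exon of their own gene in some GENCODE transcript, against 91.3% over the list.

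By the position of the peak centre in the canonical transcript, 48 of the 69 peaks (69.6%) were intronic, 12 (17.4%) in the 3′-UTR, 6 (8.70%) in coding exons, 1 in a 5′-UTR and 2 outside. Over the whole list the shares were 64.4% intronic, 17.1% 3′-UTR and 13.1% coding. The intronic peaks lay near exons: 45 of 48 (93.8%) were within 1 peak length, 347 bp, of an exon, against 96.4% over the list. Their median distance was 99.5 bp, beside 101 bp over the list. In 46 of the 48 (95.8%) the nearest exon lay on the side from which the peak's strand runs, against 97.8% over the list. At the position 173 bp back against that strand, 33 peaks (47.8%) stood in coding exons and 18 (26.1%) in introns, against 53.1% and 20.2% over the list. The exceptions to the distance were TUBB6, KLC1 and KIF23-AS1, at 5562, 2025 and 2867 bp.

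Strand did not separate the peaks. Of the 69, 36 (52.2%, interval 40.6 to 63.5%) lay on the strand of their gene, and 53.2% did over the list. The peaks merged into 60 places, 9 of which held both strands, beside 2338 of the 11795 merged places of the whole list. A − strand peak had a + strand peak of the same gene within 1000 bp in 13 cases, in 12 of which the + strand peak lay to the right, and the median offset was 271 bp. The score of the + strand peak was 0.484 to 1.57 times that of its partner, with TUBG1 at the low end and exons 3 and 4 of KIF3A at the high end. In the 3′-UTRs of KIF11, KIF5B and DYNLL2 the partners were within 5% of each other, at ratios of 1.03, 1.05 and 1.04. The 3′-UTR pairs of DYNC1LI2 and KIF3A stood further apart, at 0.921 and 0.813.

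Scores in the 3′-UTR were the higher ones. The 12 peaks centred there had a median of 163 (range 23.5 to 305.4), the 48 intronic ones 15.9 (9.05 to 310.1) and the 6 coding ones 24.7 (13.0 to 55.3). Over the list the medians were 65.5, 28.9 and 43.3. The 12 came from only 5 genes, so the contrast rested on those genes. Among the 4 genes with both kinds, the best 3′-UTR peak was above the best intronic peak in KIF11 and DYNC1LI2 and below it in KIF5B and KIF3A. A peak centred in the 3′-UTR was found in 5 of the 18 genes (27.8%, interval 12.5 to 50.9%), against 41.6% of all genes with a peak.

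Of the 11 peaks that lay wholly in a 3′-UTR, 4 (36.4%, interval 15.2 to 64.6%) held ATTTA on the sense strand, against 54.0% of all such peaks of the same length. TTTTT was held by 9 of the 11 (81.8%, interval 52.3 to 94.9%), against 78.8%. The search used the exact letters on the sense strand only, and ATTTA and TTTTT cannot overlap. The 3 peaks of DYNLL2 and the pair of KIF11 held no ATTTA, whereas 1 of the KIF3A peaks held 4. These counts describe the letters under the peaks and are too few to tell the families from the list.

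The gene name column of the list, which gives the gene with the nearest start, named the host gene in 50 of the 69 peaks (72.5%), against 58.7% over the list. The 3′-UTR peaks of KIF11 stood under HHEX, those of KIF3A under LOC105379176, the peak of KIF18B under MIR6783, that of KLC1 under XRCC3 and those of KIF2A under DIMT1. Conversely, the column named DYNC1H1, DYNLRB1 and KIF27 for peaks at 29.6, 83.0 and 79.5 that lay in the 3′-UTRs of PPP2R5C, ITCH and QNG1.

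Other genes of the microtubule system were read from a list of 134 regulators, adaptors and spindle proteins. Of these, 36 (26.9%, interval 20.1 to 34.9%) had a peak, with 148 peaks in all, beside 15.4% of all protein-coding genes. The latter share ran from 3.30% for mRNAs under 2000 bases to 34.0% from 6000 bases up. The mRNA lengths of the wider list were not compared, so its shares are not set against genes of like length. The proteins of microtubule ends were listed most often, 8 of 14, followed by spindle and spindle pole proteins with 9 of 23. The lattice-binding proteins and stathmins had 1 of 21, MAP7D3 at 27.9. The kinesin adaptors and regulators had 5 of 15, dynein and dynactin regulators 5 of 23, tubulin folding and modifying proteins 6 of 23, severing enzymes 2 of 8, and the kinesins and tubulins outside the symbol rule 0 of 7. CAMSAP2, at 16.2, was counted with the kinesin adaptors and regulators. Its relatives CAMSAP1 and CAMSAP3, without a peak, were counted with the proteins of microtubule ends.

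The highest score of this wider list was that of CAPZA1, at 1874.3 and rank 16 of 3313 genes. It encodes an alpha subunit of the actin capping protein, which also caps the short filament of dynactin. CAPZA2, its paralogue, followed at 223.4. CLASP2, which stabilises plus ends, had 84.9, HAUS2 of the augmin complex 69.7, MAPRE2 of the EB family 69.0 and TACC1, a spindle pole protein, 67.1. KIF5B and DYNC1LI2 scored above all of these genes other than CAPZA1, and KIF11 was also below CAPZA2. HOOK3, an adaptor of dynein, had the most peaks, 18, with a best score of 65.3.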

How the data were processed

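RNA immunoprecipitated from MDA-MB-231 cells with anti-HuR or mouse IgG was sequenced, with 2 samples in each group per the labels. The authors aligned reads with STAR to hg38, called peaks with HOMER and kept those with altered transcript abundance. Versions, settings, the threshold and any pooling are not given in the sources used here. The methods name ANNOVAR for annotation, but the header shows a HOMER command. The deposited table holds a HOMER score for each peak, and per the file headers a fraction, the focus ratio, which was not used further than its quartiles. Depth per sample is unknown. Of the 11121 scores under 100, 99.3% lay on multiples of 0.245 (tolerance 0.05 from 10 and 0.005 below). That step was the best-fitting of a range tried on these same scores. For 1 step fixed beforehand the share by chance would be 39.3%, which does not allow for the search. That 1 step is 1 tag is not stated by the authors.

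The planned comparison with IgG could not be made because no value of a single sample was held, so the results are counts and shares with Wilson 95% intervals, which cover counting error only. Host genes came from the RefSeq transcript of each annotation, matched for 13838 of 13929 peaks. Exons and UTRs were those of the GENCODE 44 canonical transcript, available for 13784 peaks, and coordinates are 1-based. Words of 31 bases were counted over hg38 on both strands. Sequences were read from hg38.

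The members, the roles and the wider list were chosen with earlier results of these data known. Genes named with values were the 2 with the highest best score in each role, the 5 with the most peaks, the 5 with the most repeated peaks and the 6 highest of the wider list. The other listed genes, and MAP7D3, KIFAP3, HOOK3 and CAMSAP2, were named after their values were seen. Python 3.11.15 was used with numpy 2.4.6, pandas 2.3.3, scipy 1.17.1, pysam 0.24.0, numba 0.67.0 and matplotlib 3.10.9, and functions were tested on simulated data.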

Additional observations from a re-analysis of the deposited data

How the results depend on the processing

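The 7 summaries of the motor and tubulin peaks (the numbers of peaks and genes, the shares in 3′-UTRs and introns, the median score, the share on the strand of the gene and the share of 3′-UTR peaks with ATTTA) were recomputed under 46 alternatives, 7 of them chosen after seeing the data, and 39 stayed within 1.5 times the count or within the 95% interval. When peaks scoring below the list's median were dropped, there remained 19 peaks in 7 genes, 31.6% of them in 3′-UTRs and 36.8% in introns, with a median score of 121.1. As that cut is on the score itself, the lower counts and the higher median score were fixed in advance. The shares over the whole list were not computed under the same cut. The intronic share was 68.1% by the deposited annotation, 69.6% at the peak centre in the canonical transcript and 26.1% in that transcript at the upstream edge of the peak, 173 bp from its centre. TTTTT in place of ATTTA raised the motif share to 81.8%, and ATTTA in windows moved 173 bp back against the peak's strand gave 58.3%. Taking only peaks over an exon of their own gene left 61 peaks in 14 genes, without KIF14, KLC1, TUBB6 and TUBG1. Without KIF3A and DYNC2H1 the median score was 21.0. No paired analysis was possible because no sample had values of its own, and for the same reason no replicate could be left out. Depth, which is unknown, limits what the absence of a gene can mean.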
